A study of Homo sapiens with 12 samples.

Results

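The 36 genes described here encode the enzymes of glycolysis from glucose uptake to lactate, the transporters that export lactate, 3 enzymes that set the flux, and well-known targets of the hypoxia-inducible factors (HIFs) together with both main HIF alpha subunits. They were taken by symbol, by a rule that reads no measured value, out of 63677 genes counted. The list itself was chosen with earlier results of these data known. All 36 genes were among the 21325 with enough counts to be tested. By role they fell into 16 glycolytic genes, 4 genes of lactate, 3 regulators of flux, 11 other hypoxia targets and 2 HIF alpha subunits.

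RNA was measured in 3 established cell lines of basal-like breast cancer, MDA-MB-468, SUM149PT and HCC38, each a single line. Cells were transfected with LNA1 and LNA2 together against a long non-coding RNA, Ensembl gene ENSG00000258910 (knock-down), or with a non-targeting LNA (LNA NS), at 50 nM, received new medium at 6 h and were collected at 24 h. LNA GapmeRs are short antisense oligonucleotides whose target RNA is cut by RNase H. Each line had 2 knock-down and 2 LNA NS libraries of polyadenylated RNA, 12 in all. MDA-MB-468 was grown in DMEM/F12 with serum, SUM149PT in DMEM/F12 with serum, insulin and hydrocortisone, and HCC38 in RPMI with serum, so line and medium cannot be told apart in the comparisons between lines. No source used here names separate cultures for the 2 libraries of a group, and the p-values therefore cover only how far these libraries spread, which may be technical.

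The libraries held 32187835 to 56191152 gene counts. Levels are given as CPM (counts scaled to a common library size) after TMM normalization, and genes are compared with each other only per kilobase (kb) of their canonical transcript. The targeted lncRNA was at 0.0233 CPM after knock-down, against 0.703 CPM with LNA NS in MDA-MB-468, 0.496 CPM after knock-down, against 10.9 CPM with LNA NS in SUM149PT and 1.76 CPM after knock-down, against 14.8 CPM with LNA NS in HCC38, as the mean of 2 libraries. Among the cell type markers, EPCAM (256 to 586 CPM) and KRT8 (347 to 1716 CPM) were high in every library. Of the basal keratins in HCC38, KRT14 and KRT17 stayed at or under 1.64 CPM, while KRT5 was at 46.3 to 62.9 CPM and KRT6B at 6.74 to 14.7 CPM. The leukocyte markers PTPRC and CD3E did not exceed 0.0803 CPM in any library, but CD14, of the same list, was at 4.13 to 13.8 CPM. HBB did not exceed 0.0186 CPM, and HBA1 reached 4.23 CPM in SUM149PT. The fibroblast gene COL1A1 was at 16.7 to 119 CPM. CDH5, an endothelial cadherin, was at 6.97 and 6.38 CPM after knock-down, against 1.70 and 2.31 CPM with LNA NS in MDA-MB-468. In SUM149PT CDH5 was at 2.08 and 2.23 CPM after knock-down, against 0.241 and 0.423 CPM with LNA NS. In HCC38 it did not exceed 0.0437 CPM. VWF, of the same list, did not exceed 0.327 CPM in any library. The part of these markers in the results was not tested.

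Glycolysis splits glucose into pyruvate in the cytosol, and lactate dehydrogenase then turns pyruvate into lactate, which leaves the cell through monocarboxylate transporters. Several steps can be run by different isoenzymes encoded by separate genes, and tumor cells often use these genes at high levels even when oxygen is present. In low oxygen the prolyl hydroxylases that mark HIF alpha subunits for degradation slow down, and HIF, paired with ARNT, binds a short core sequence near its target genes, many of which encode glycolytic enzymes.

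To show where that core lies, the 300 bases around the start of 4 genes are printed, chosen because they stand for the 4 patterns described below: ALDOC rose in every line, CA9 fell in MDA-MB-468, LDHA did not pass the test in any line and EGLN3 moved in opposite directions. The sequences are those of RefSeq for GRCh38.p14, mostly before the annotated start and read along the gene, and capitals mark ACGTG or GCGTG on either strand (CACGT and CACGC when on the other strand). ALDOC lies at chr17:28576846-28577145 on the minus strand, CA9 at chr9:35673678-35673977 on the plus strand, LDHA at chr11:18394313-18394612 on the plus strand and EGLN3 at chr14:33951025-33951324 on the minus strand.
ALDOC: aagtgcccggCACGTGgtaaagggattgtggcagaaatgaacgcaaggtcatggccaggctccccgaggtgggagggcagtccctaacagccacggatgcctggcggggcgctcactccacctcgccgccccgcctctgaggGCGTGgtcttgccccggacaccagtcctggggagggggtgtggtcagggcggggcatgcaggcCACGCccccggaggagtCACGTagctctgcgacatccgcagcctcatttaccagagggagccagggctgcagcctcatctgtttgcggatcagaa
CA9: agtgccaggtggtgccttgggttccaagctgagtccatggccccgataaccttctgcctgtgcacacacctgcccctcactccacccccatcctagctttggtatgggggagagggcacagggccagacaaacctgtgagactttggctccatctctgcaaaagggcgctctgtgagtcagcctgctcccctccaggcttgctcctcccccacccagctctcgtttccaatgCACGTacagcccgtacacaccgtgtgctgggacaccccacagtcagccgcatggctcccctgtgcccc
LDHA: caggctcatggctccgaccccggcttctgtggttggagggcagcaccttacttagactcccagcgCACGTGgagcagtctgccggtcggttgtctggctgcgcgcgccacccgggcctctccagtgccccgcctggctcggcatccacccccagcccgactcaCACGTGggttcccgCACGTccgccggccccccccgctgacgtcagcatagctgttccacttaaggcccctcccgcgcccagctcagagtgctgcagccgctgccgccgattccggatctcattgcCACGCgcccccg
EGLN3: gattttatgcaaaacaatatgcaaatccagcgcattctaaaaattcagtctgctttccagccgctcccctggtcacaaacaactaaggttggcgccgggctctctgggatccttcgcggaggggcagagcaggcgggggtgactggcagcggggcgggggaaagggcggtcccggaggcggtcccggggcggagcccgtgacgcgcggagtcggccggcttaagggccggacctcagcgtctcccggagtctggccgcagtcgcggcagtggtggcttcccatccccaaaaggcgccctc
The core occurred 5 times in the ALDOC window and 6 times in that of LDHA, where CACGTG counts once on each strand, and once in CA9. The EGLN3 window held no match. Of the 33 genes of the list with an entry, 24 (72.7%) held a match, against 48.4% of 35116 windows of this length over all genes and 58.2% of 19166 windows of genes tested here. The windows of the list were also richer in G and C, with a median of 69.7%, against 58.7% over all windows and 64.0% for the genes tested. SLC16A1, VEGFA and NDRG1 had no entry. The motif was read from the sequence only, and the start in use in these cells was not measured.

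The first question was how knock-down of the lncRNA moved these genes on average over the 3 lines. HK1, PFKP and EPAS1 fell most, by 1.37, 1.40 and 1.19 on the log2 scale, and ALDOC rose most, with a log2 fold change of 2.01. From triose phosphate to lactate, TPI1, GAPDH, PGK1, PGAM1, ENO1, PKM and LDHA had log2 fold changes between −0.13 and 0.08, while ENO2 rose by 0.21. Of the 36 genes, 19 fell, 7 rose and 10 did not pass at an adjusted p under 0.1 in edgeR's quasi-likelihood test, where 54.8% of all genes tested were called (28.4% higher and 26.5% lower). Past 2-fold were 1 that rose and 3 that fell, against 12.5% of all genes in either direction. The median log2 fold change of the list was −0.11, against 0.04 over all genes tested. Bulk RNA cannot tell fewer cells of a kind from less RNA per cell.

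Line by line, 15 of the genes fell and 6 rose in MDA-MB-468, where 50.6% of all genes were called (24.9% higher and 25.7% lower). In SUM149PT 11 fell and 4 rose, with 38.0% of all genes called (20% higher and 18.0% lower). In HCC38 12 fell and 6 rose, with 34.0% called (15.5% higher and 18.4% lower). Changes past 2-fold were 1 rise and 6 falls in MDA-MB-468 (20.2% of all genes in either direction), 1 rise and 2 falls in SUM149PT (10.6%), and 1 rise and 3 falls in HCC38 (9.36%). Without HCC38 knock-down replicate 2 the HCC38 count was 11 in place of 18. The median log2 fold changes of the list were −0.19, −0.02 and −0.13 in MDA-MB-468, SUM149PT and HCC38, against 0.00, 0.03 and 0.01 over all genes. Both knock-down libraries lay below both LNA NS libraries for 24 of the genes in MDA-MB-468 (34.5% of all genes), 15 in SUM149PT (29.4%) and 19 in HCC38 (30.9%). They lay above for 8 genes in MDA-MB-468 (35.3% of all genes), 9 in SUM149PT (33.7%) and 8 in HCC38 (30.6%). The 5 genes HK1, GPI, PFKM, PFKP and PDK1 fell in each line, as did 8.74% of all genes. ALDOC rose in each line, as did 6.60% of all genes. HK2, TPI1, GAPDH, PKM, LDHA, VEGFA and ANKRD37 were called in no line. With the trend of counts with gene span removed, TPI1, GAPDH, LDHA and VEGFA passed in MDA-MB-468, by −0.30, −0.26, −0.29 and −0.30 on the log2 scale, as did PKM (−0.14), GAPDH in HCC38 (−0.27) and HK2 in HCC38 (0.29). The changes of 17 of the 36 genes differed between lines, where 32.4% of all genes passed that test.

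**Figure D1:**
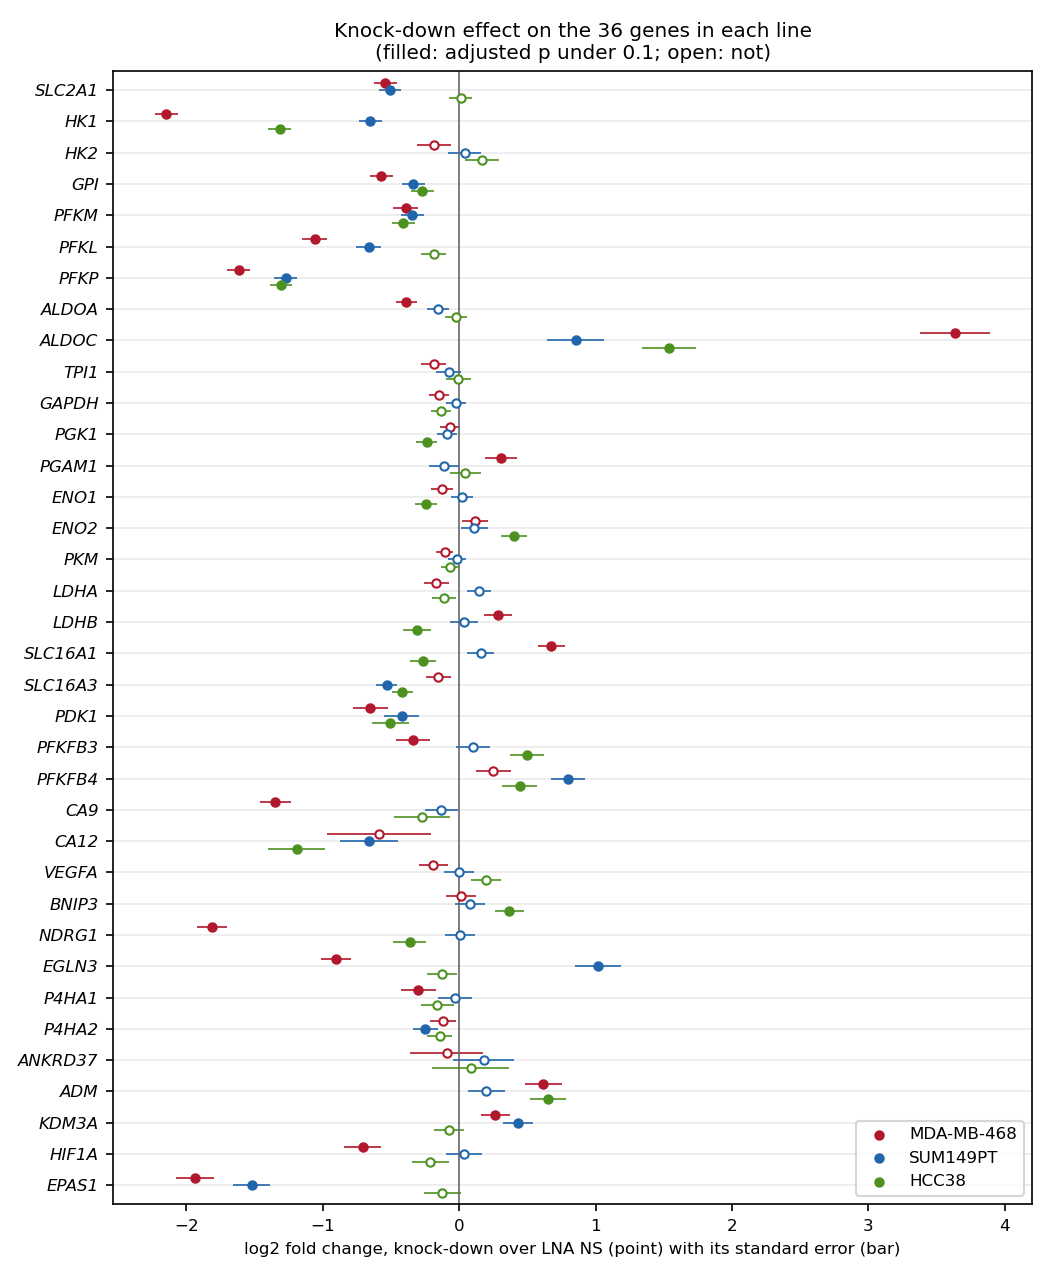
Log2 fold change of each of the 36 genes, knock-down over LNA NS, in MDA-MB-468 (red), SUM149PT (blue) and HCC38 (green), with bars for the standard error from the edgeR fit and filled points for an adjusted p under 0.1. HK1 and PFKP lie left of 0 in all lines, ALDOC lies right of 0 in all lines, and EGLN3 lies left in MDA-MB-468 (−0.90) and right in SUM149PT (1.02).

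Glucose entry and its first phosphorylation came down in parts. SLC2A1, the glucose transporter GLUT1 (chromosome 1, 43391024 to 43424539 in GRCh37, the build of all gene positions that follow), was at 228 and 209 CPM after knock-down, against 312 and 323 CPM with LNA NS in MDA-MB-468. In SUM149PT SLC2A1 was at 204 and 192 CPM after knock-down, against 285 and 276 CPM with LNA NS. In HCC38 its values were 280.4 and 289.9 CPM after knock-down, against 272 and 294 CPM with LNA NS. The groups did not overlap in MDA-MB-468 or SUM149PT, and overlapped in HCC38. The log2 fold changes of SLC2A1 were −0.54 (SE 0.0823, edgeR adjusted p = 6.1e-05), −0.50 (adjusted p = 2.5e-04) and 0.01 (adjusted p = 0.951), and they differed between lines (edgeR adjusted p = 0.00460).

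HK1, the hexokinase of most tissues, which traps glucose as glucose 6-phosphate at mitochondria (chromosome 10, 71078603 to 71161638), was at 68.9 and 63.6 CPM after knock-down, against 291 and 296 CPM with LNA NS in MDA-MB-468. In SUM149PT HK1 was at 222 and 204 CPM after knock-down, against 345 and 325 CPM with LNA NS. In HCC38 it was at 75.1 and 74.6 CPM after knock-down, against 181 and 191 CPM with LNA NS. In each line both knock-down libraries were below both LNA NS libraries, and by the widest margin in MDA-MB-468. HK1 fell by 2.15 (SE 0.0837, edgeR adjusted p = 1.8e-10), 0.65 (adjusted p = 2.9e-05) and 1.31 (adjusted p = 4.3e-08) in log2 units for MDA-MB-468, SUM149PT and HCC38, and the size of the fall differed between lines (edgeR adjusted p = 7.0e-06). HK2, the inducible hexokinase and a HIF target, was at 82.1 and 80.0 CPM after knock-down, against 84.1 and 100.3 CPM with LNA NS in MDA-MB-468. In SUM149PT HK2 was at 84.1 and 78.8 CPM after knock-down, against 87.8 and 70.6 CPM with LNA NS, and in HCC38 at 43.6 and 35.4 CPM after knock-down, against 34.3 and 36 CPM with LNA NS. HK2 had log2 fold changes of −0.19, 0.04 and 0.17, none of which passed (adjusted p = 0.245, 0.862 and 0.358 from edgeR), and the groups overlapped in SUM149PT and HCC38. GPI, which turns glucose 6-phosphate into fructose 6-phosphate, fell by 0.57, 0.34 and 0.27 in the 3 lines. The call of GPI was lost without SUM149PT knock-down replicate 2 (−0.25) in that line and without HCC38 knock-down replicate 2 (−0.27) in HCC38.

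Phosphofructokinase, the committed step of glycolysis, is a tetramer of subunits from 3 genes, and all of these fell on average. PFKP, the platelet type (chromosome 10, 3109740 to 3178994), was at 89.5 and 83.2 CPM after knock-down, against 263 and 266 CPM with LNA NS in MDA-MB-468. In SUM149PT PFKP was at 241 and 216 CPM after knock-down, against 567 and 537 CPM with LNA NS. In HCC38 it was at 159 and 155 CPM after knock-down, against 384 and 391 CPM with LNA NS. No knock-down library of PFKP reached an LNA NS library of its line. PFKP fell by 1.62 (SE 0.0833, edgeR adjusted p = 1.4e-09) in MDA-MB-468, by 1.27 (adjusted p = 5.5e-08) in SUM149PT and by 1.31 (adjusted p = 4.2e-08) in HCC38. The test of a difference between lines gave an adjusted p of 0.0679 in edgeR, which 8 of the 12 fits without 1 library moved past 0.1 (up to 0.277). PFKL, the liver type, was at 204 and 167 CPM after knock-down, against 381 and 392 CPM with LNA NS in MDA-MB-468. In SUM149PT PFKL was at 146 and 143 CPM after knock-down, against 232 and 225 CPM with LNA NS, and in HCC38 at 119 and 118 CPM after knock-down, against 134 and 135 CPM with LNA NS. PFKL fell by 1.06 in MDA-MB-468 and 0.66 in SUM149PT, whereas in HCC38 its log2 fold change of −0.19 missed the threshold (adjusted p = 0.154 from edgeR), with a difference between lines (edgeR adjusted p = 9.9e-04). PFKM, the muscle type, fell by 0.39, 0.34 and 0.41, and for this gene the changes did not pass the test of a difference (adjusted p = 0.908 from edgeR).

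**Figure D2:**
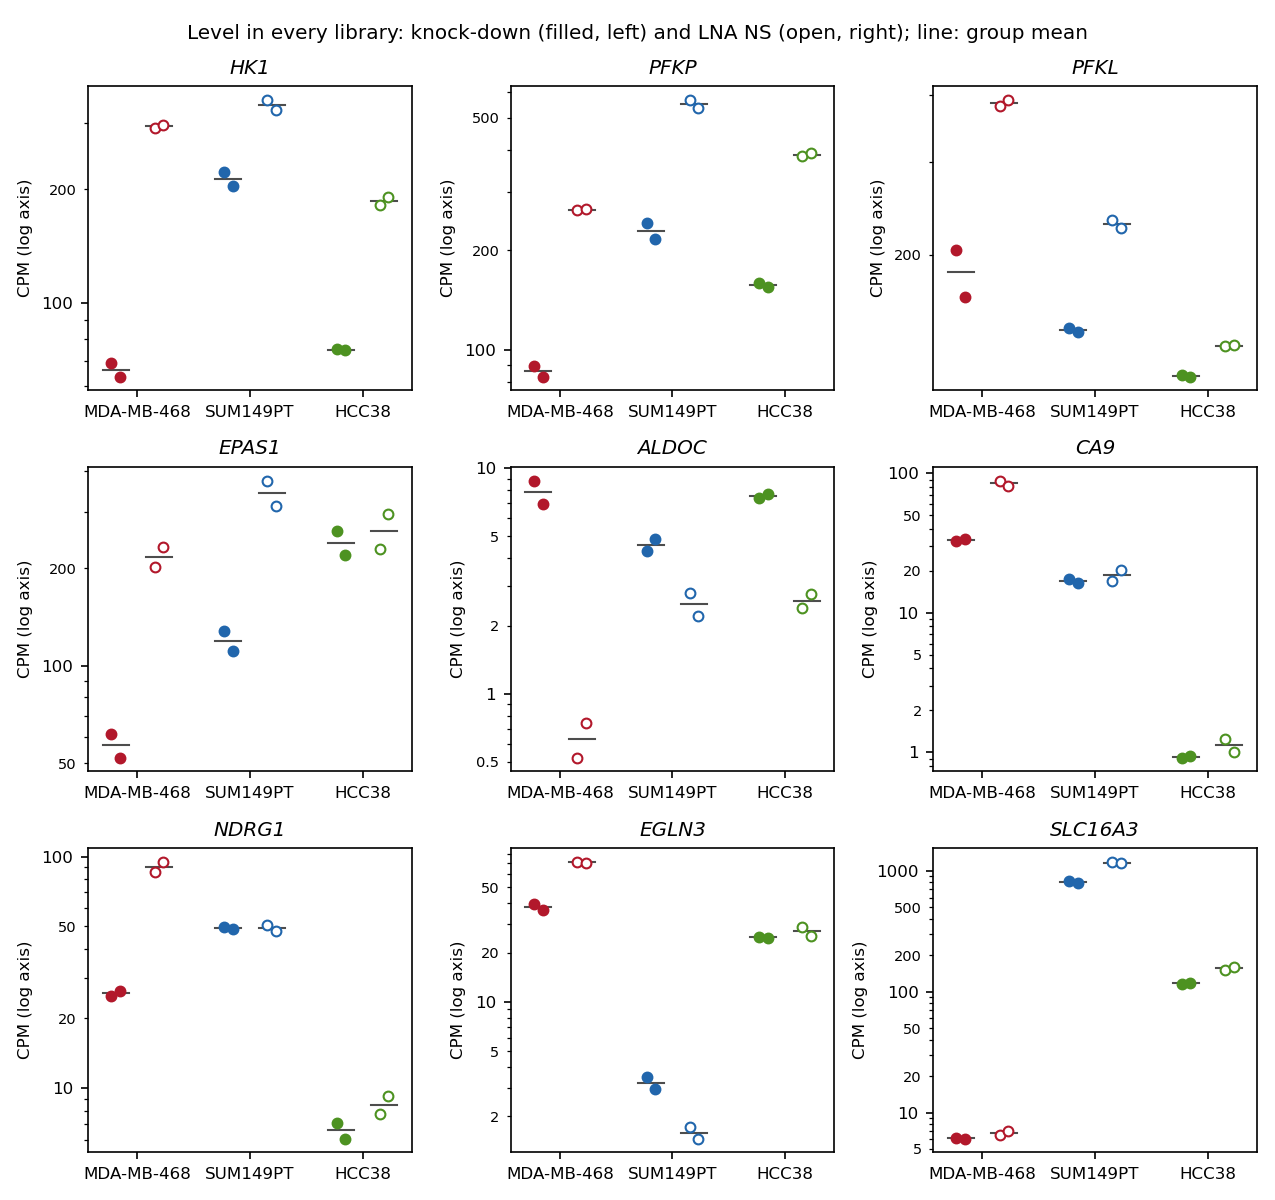
Level of 9 genes in every library, in CPM on log axes, with knock-down libraries (filled, left) and LNA NS libraries (open, right) of each line and a bar for the mean of 2. HK1 and PFKP are lower after knock-down in all lines, EPAS1 is lower in MDA-MB-468 and SUM149PT, and CA9 and NDRG1 show their wide gap in MDA-MB-468.

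Aldolase splits fructose 1,6-bisphosphate into triose phosphates. ALDOA, its main form in these cells, was at 1209 and 1173 CPM after knock-down, against 1582 and 1530.4 CPM with LNA NS in MDA-MB-468. It fell there by 0.39 (edgeR adjusted p = 8.1e-04), and its log2 fold changes of −0.15 in SUM149PT and −0.02 in HCC38 did not pass. In SUM149PT ALDOA passed with the span trend removed (−0.20) and in DESeq2 (−0.18). ALDOC, the brain type (chromosome 17, 26900138 to 26903913), was at 8.81 and 6.99 CPM after knock-down, against 0.521 and 0.744 CPM with LNA NS in MDA-MB-468. In SUM149PT ALDOC was at 4.30 and 4.87 CPM after knock-down, against 2.81 and 2.22 CPM with LNA NS. In HCC38 it was at 7.39 and 7.70 CPM after knock-down, against 2.40 and 2.78 CPM with LNA NS. Both knock-down libraries were above both LNA NS libraries in each line, at levels that stayed low beside ALDOA: per kb, ALDOC made up 0.671%, 0.309% and 0.427% of aldolase after knock-down in MDA-MB-468, SUM149PT and HCC38, against 0.0416%, 0.153% and 0.145% with LNA NS. ALDOC rose by 3.63 (SE 0.259, edgeR adjusted p = 1.3e-08), 0.85 (adjusted p = 0.00516) and 1.54 (adjusted p = 3.2e-05), and the rise differed between lines (edgeR adjusted p = 1.2e-04).

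Among the lower steps, from triose phosphate to pyruvate, the highest level of the list per kb with LNA NS was that of GAPDH in MDA-MB-468 and SUM149PT and that of PKM in HCC38. Their mean changes were larger with the span trend removed, at −0.19 for TPI1 (−0.09 without that step), −0.20 for GAPDH (−0.10), −0.19 for PGK1 (−0.13), −0.20 for ENO1 (−0.12) and −0.09 for PKM (−0.06), and all 5 passed there. ENO2 was at 0.11 and no longer passed. GAPDH, which makes 1,3-bisphosphoglycerate, was at 2071 and 2043 CPM after knock-down, against 2356 and 2201 CPM with LNA NS in MDA-MB-468. In SUM149PT GAPDH was at 3805 and 3594 CPM after knock-down, against 3719 and 3799 CPM with LNA NS, and in HCC38 at 1652 and 1775 CPM after knock-down, against 1891 and 1869 CPM with LNA NS. Its log2 fold changes of −0.15, −0.02 and −0.13 did not pass in any line, and its mean of −0.10 passed at an adjusted p of 0.0539 (edgeR). That call was lost without MDA-MB-468 LNA NS replicate 1 (−0.09), MDA-MB-468 knock-down replicate 2 (−0.10), SUM149PT knock-down replicate 2 (−0.09) or HCC38 knock-down replicate 1 (−0.10). In MDA-MB-468 GAPDH passed without LNA NS replicate 2 of that line (−0.20). PKM, pyruvate kinase of proliferating tissue and muscle, was at 5986 and 6025 CPM after knock-down, against 6089.7 and 6036 CPM with LNA NS in SUM149PT, with log2 fold changes of −0.11, −0.01 and −0.07 in MDA-MB-468, SUM149PT and HCC38, none past the threshold. TPI1, the triose phosphate isomerase, had log2 fold changes of −0.19, −0.08 and −0.01, also none past it, although the first passed in 5 of the 12 fits without 1 library, all of them of the other lines. The gene counts do not separate the PKM1 and PKM2 splice forms.

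PGK1, phosphoglycerate kinase, and ENO1, the main enolase, fell in HCC38 alone by the test in each line, by 0.24 each (edgeR adjusted p = 0.0275 and 0.0365). PGK1 was at 533 and 534 CPM after knock-down, against 656 and 603 CPM with LNA NS there, and ENO1 at 1883 and 1966 CPM after knock-down, against 2391 and 2159 CPM with LNA NS. Both calls rested on single libraries: PGK1 had −0.18 without HCC38 LNA NS replicate 1 and −0.24 without HCC38 knock-down replicate 2, ENO1 had −0.17 without HCC38 LNA NS replicate 1 and −0.23 without HCC38 knock-down replicate 1, and none of these passed. Neither gene passed the test of a difference between lines (adjusted p = 0.395 and 0.221 from edgeR). With the span trend removed ENO1 also passed in MDA-MB-468 (−0.24) and PGK1 in SUM149PT (−0.17). ENO2, the neuronal enolase and a HIF target, rose in HCC38, at 66.8 and 68.3 CPM after knock-down, against 49.5 and 52.8 CPM with LNA NS, a log2 fold change of 0.40 (edgeR adjusted p = 0.00495), and had 0.12 and 0.11 in MDA-MB-468 and SUM149PT. PGAM1, phosphoglycerate mutase, rose in MDA-MB-468 by 0.31, a call that did not survive leaving out LNA NS replicate 1 or, in turn, knock-down replicate 2 (0.19 each), or removal of the span trend (0.18). Copies of PGAM1 elsewhere in the genome, of which 13 annotated pseudogenes were counted separately, held 13.4% of the counts of gene and copies together, and those of GAPDH 2.51%, so reads of these genes may have been split or dropped and their levels are uncertain.

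Of the 4 genes of lactate, LDHB and SLC16A1 rose in MDA-MB-468 and fell in HCC38, SLC16A3 fell in SUM149PT and HCC38, and LDHA passed in no line. LDHA, the form that favors lactate, was at 881 and 912 CPM after knock-down, against 1057 and 957 CPM with LNA NS in MDA-MB-468. In SUM149PT LDHA was at 1021 and 910.3 CPM after knock-down, against 850.4 and 896 CPM with LNA NS, and in HCC38 at 833 and 859 CPM after knock-down, against 981 and 847 CPM with LNA NS. Its log2 fold changes of −0.17, 0.15 and −0.11 did not pass (adjusted p = 0.150, 0.256 and 0.406 from edgeR). LDHB, the heart type, was at 95.9 and 91.1 CPM after knock-down, against 80.1 and 73.3 CPM with LNA NS in MDA-MB-468, where it rose by 0.29 (edgeR adjusted p = 0.0380). In HCC38 LDHB was at 593 and 581 CPM after knock-down, against 808 and 644 CPM with LNA NS, where it fell by 0.31 (adjusted p = 0.0393). The lines differed for LDHB (edgeR adjusted p = 0.0237), while each single call was lost without 1 library: 0.24 without knock-down replicate 1 and 0.22 without LNA NS replicate 2 in MDA-MB-468, −0.14 without LNA NS replicate 1 and −0.29 without knock-down replicate 2 in HCC38. With the span trend removed LDHB was at 0.20 in MDA-MB-468 and did not pass.

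SLC16A1, the transporter MCT1, was at 55.1 and 53.0 CPM after knock-down, against 33.8 and 33.9 CPM with LNA NS in MDA-MB-468. In SUM149PT SLC16A1 was at 239 and 204 CPM after knock-down, against 198 and 199 CPM with LNA NS, and in HCC38 at 280.5 and 246 CPM after knock-down, against 334 and 299 CPM with LNA NS. It rose by 0.67 in MDA-MB-468 (SE 0.0998, edgeR adjusted p = 4.6e-05), had 0.16 in SUM149PT, which passed without knock-down replicate 2 of that line (0.27), and fell by 0.27 in HCC38, a call that did not survive leaving out LNA NS replicate 1 (−0.19) or, in turn, knock-down replicate 2 (−0.17). The lines differed (edgeR adjusted p = 8.8e-04). SLC16A3, the transporter MCT4 and a HIF target, was at 819.8 and 794 CPM after knock-down, against 1185 and 1148 CPM with LNA NS in SUM149PT. In HCC38 SLC16A3 was at 115 and 119 CPM after knock-down, against 151 and 161 CPM with LNA NS, and in MDA-MB-468 at 6.12 and 6.10 CPM after knock-down, against 6.53 and 7.04 CPM with LNA NS. It fell by 0.53 in SUM149PT (edgeR adjusted p = 8.9e-05) and by 0.42 in HCC38 (adjusted p = 9.1e-04), and its log2 fold change of −0.15 in MDA-MB-468 did not pass, but was −0.28 and passed with the span trend removed. The test of a difference between lines gave an adjusted p of 0.0759 in edgeR, and 10 of the 12 fits without 1 library moved it past 0.1 (up to 0.261).

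The 3 regulators of flux did not move together. PDK1, the kinase that shuts pyruvate dehydrogenase and a HIF target, was at 18.4 and 16.8 CPM after knock-down, against 26.4 and 28.8 CPM with LNA NS in MDA-MB-468. In SUM149PT PDK1 was at 23.2 and 20.1 CPM after knock-down, against 29.0 and 29.1 CPM with LNA NS, and in HCC38 at 9.79 and 8.21 CPM after knock-down, against 14.0 and 11.6 CPM with LNA NS. It fell by 0.65, 0.42 and 0.50 in these lines (edgeR adjusted p = 7.0e-04, 0.0211 and 0.0116), with the SUM149PT call lost without its knock-down replicate 2 (−0.32) and the HCC38 call lost without its LNA NS replicate 1 (−0.37) or knock-down replicate 2 (−0.39). PFKFB3 and PFKFB4 make fructose 2,6-bisphosphate, the activator of phosphofructokinase. PFKFB4 was at 21.4 and 24.5 CPM after knock-down, against 13.9 and 12.4 CPM with LNA NS in SUM149PT and rose there by 0.80 (SE 0.127, edgeR adjusted p = 2.1e-04). PFKFB4 also rose by 0.44 in HCC38, a call lost without knock-down replicate 2 of that line (0.36), and had 0.25 in MDA-MB-468. PFKFB3 was at 155 and 134 CPM after knock-down, against 91.5 and 113 CPM with LNA NS in HCC38, where it rose by 0.50, and at 65.4 and 63.7 CPM after knock-down, against 74.8 and 88.5 CPM with LNA NS in MDA-MB-468, where it fell by 0.34. The lines differed for PFKFB3 (edgeR adjusted p = 0.00886). Its rise was lost without HCC38 LNA NS replicate 1 (0.35), and its fall without MDA-MB-468 LNA NS replicate 2 (−0.22) or knock-down replicate 2 (−0.32).

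Both HIF alpha subunits fell on average, and their changes differed between lines. EPAS1, which encodes HIF-2 alpha (chromosome 2, 46524546 to 46613836), was at 61.5 and 52.0 CPM after knock-down, against 202 and 233 CPM with LNA NS in MDA-MB-468. In SUM149PT EPAS1 was at 128 and 111 CPM after knock-down, against 373 and 312 CPM with LNA NS. In HCC38 it was at 262 and 219.6 CPM after knock-down, against 229.7 and 295 CPM with LNA NS. The groups were apart in MDA-MB-468 and SUM149PT and overlapped in HCC38. EPAS1 fell by 1.94 (SE 0.138, edgeR adjusted p = 3.4e-08) and 1.52 (adjusted p = 1.2e-06), against a log2 fold change of −0.12 in HCC38 (adjusted p = 0.554), and the lines differed (edgeR adjusted p = 5.1e-05). HIF1A, which encodes HIF-1 alpha, was at 77.6 and 70.8 CPM after knock-down, against 121 and 121 CPM with LNA NS in MDA-MB-468. In SUM149PT HIF1A was at 426 and 324 CPM after knock-down, against 384 and 348 CPM with LNA NS, and in HCC38 at 157 and 116 CPM after knock-down, against 154 and 162 CPM with LNA NS. HIF1A fell by 0.71 in MDA-MB-468 (edgeR adjusted p = 5.4e-04) and had 0.04 and −0.21 in SUM149PT and HCC38, where the groups overlapped. Without HCC38 knock-down replicate 1 the HCC38 value was −0.47 and passed. The lines differed for HIF1A at an adjusted p of 0.0264 (edgeR), which was 0.119 without MDA-MB-468 knock-down replicate 2. HIF alpha is controlled mainly as a protein, which was not measured here.

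Among the other hypoxia targets, 5 fell and 3 rose on average over the lines (26.5% and 28.4% of all genes tested), and the median log2 fold change of these 11 genes was 0.00, against 0.04 over all genes tested. CA9, a carbonic anhydrase of the cell surface and a commonly used mark of HIF-1 activity (chromosome 9, 35673925 to 35681156), was at 32.7 and 33.8 CPM after knock-down, against 88.3 and 80.8 CPM with LNA NS in MDA-MB-468. In SUM149PT CA9 was at 17.4 and 16.4 CPM after knock-down, against 16.8 and 20.4 CPM with LNA NS, and in HCC38 at 0.915 and 0.942 CPM after knock-down, against 1.25 and 1.00 CPM with LNA NS. It fell by 1.35 in MDA-MB-468 (SE 0.114, edgeR adjusted p = 1.7e-07), with log2 fold changes of −0.13 and −0.27 in SUM149PT and HCC38 that did not pass, and the lines differed (edgeR adjusted p = 3.5e-04). NDRG1, a stress-induced protein that rises in low oxygen, was at 25 and 26.4 CPM after knock-down, against 85.6 and 94.9 CPM with LNA NS in MDA-MB-468. In SUM149PT NDRG1 was at 49.7 and 48.8 CPM after knock-down, against 50.6 and 47.6 CPM with LNA NS, and in HCC38 at 7.08 and 6.06 CPM after knock-down, against 7.71 and 9.25 CPM with LNA NS. NDRG1 fell by 1.81 in MDA-MB-468 (SE 0.110, edgeR adjusted p = 6.6e-09), had 0.00 in SUM149PT, and fell by 0.36 in HCC38, a call that did not survive leaving out LNA NS replicate 2 (−0.23) or, in turn, knock-down replicate 2 (−0.26). The lines differed (edgeR adjusted p = 8.8e-06).

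EGLN3, the prolyl hydroxylase PHD3, which is itself induced by HIF and acts on HIF alpha, moved in opposite directions. It was at 39.8 and 36.2 CPM after knock-down, against 71.6 and 70.3 CPM with LNA NS in MDA-MB-468 and fell there by 0.90 (SE 0.109, edgeR adjusted p = 6.6e-06). In SUM149PT EGLN3 was at 3.48 and 2.94 CPM after knock-down, against 1.71 and 1.47 CPM with LNA NS and rose by 1.02 (SE 0.167, edgeR adjusted p = 2.3e-04). In HCC38 EGLN3 was at 25.1 and 24.5 CPM after knock-down, against 28.8 and 25.3 CPM with LNA NS, and its log2 fold change of −0.12 missed the threshold. The lines differed for EGLN3 (edgeR adjusted p = 4.8e-05), so that its mean over the lines was 0.00. ADM, the vasodilator peptide adrenomedullin, rose in MDA-MB-468 by 0.62 and in HCC38 by 0.65, with 24.0 and 26.7 CPM after knock-down, against 16 and 16.2 CPM with LNA NS in HCC38, and had 0.20 in SUM149PT. CA12, the other carbonic anhydrase of the list, was at 3.71 and 4.69 CPM after knock-down, against 9.59 and 9.48 CPM with LNA NS in HCC38 and fell there by 1.19 (edgeR adjusted p = 5.8e-04). CA12 fell by 0.66 in SUM149PT, a call that did not survive leaving out LNA NS replicate 1 (−0.47) or, in turn, knock-down replicate 2 (−0.57), and was under 1 CPM in MDA-MB-468, where its value of −0.59 did not pass but was −1.20 and passed without knock-down replicate 1.

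The remaining targets changed by less. VEGFA, the angiogenic growth factor, had log2 fold changes of −0.19, 0.00 and 0.20 in MDA-MB-468, SUM149PT and HCC38, none past the threshold, although without MDA-MB-468 LNA NS replicate 1 the first was −0.33 and passed. BNIP3, a mitophagy receptor, was at 45.4 and 46.6 CPM after knock-down, against 36.4 and 34.8 CPM with LNA NS in HCC38 and rose by 0.37, a call lost without HCC38 LNA NS replicate 2 (0.33). Its 42 annotated pseudogenes held 8.38% of the counts of gene and copies, so its level is uncertain. KDM3A, a histone demethylase, rose by 0.43 in SUM149PT (0.29 and no longer passing without knock-down replicate 1) and by 0.27 in MDA-MB-468, a call that each of the 4 fits without 1 library of that line ended (0.24 to 0.27). P4HA1 and P4HA2, subunits of the prolyl hydroxylase that modifies collagen, fell in 1 line each, P4HA1 by 0.30 in MDA-MB-468 and P4HA2 by 0.25 in SUM149PT. The call of P4HA1 did not survive leaving out LNA NS replicate 1 (−0.15) or, in turn, knock-down replicate 1 (−0.19), and that of P4HA2 was lost without any 1 of the 4 libraries of its line (−0.29 to −0.20). ANKRD37, an ankyrin repeat protein induced in low oxygen, was at 0.852 to 9.09 CPM and had −0.09, 0.18 and 0.08.

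The second question was how the lines differed before knock-down, with LNA NS alone. Of the 36 genes, 32 differed between MDA-MB-468 and HCC38 (14 higher, 18 lower in MDA-MB-468), where 71.4% of all genes were called (33.7% higher and 37.7% lower). Between MDA-MB-468 and SUM149PT 28 differed (9 higher, 19 lower in MDA-MB-468), with 68.5% of all genes called (35.3% higher and 33.2% lower). Between SUM149PT and HCC38 26 differed (20 higher, 6 lower in SUM149PT), with 69.6% called (31.6% higher and 38.0% lower). Past 2-fold were 15 genes for MDA-MB-468 over HCC38 (43.6% of all genes), 16 for MDA-MB-468 over SUM149PT (40.7%) and 10 for SUM149PT over HCC38 (40.1%). These comparisons share their LNA NS libraries. SLC16A3 spanned the widest range. It was at 6.53 and 7.04 CPM in MDA-MB-468, 1185 and 1148 CPM in SUM149PT and 151 and 161 CPM in HCC38, a log2 difference of −7.42 (SE 0.0861, edgeR adjusted p = 1.7e-16) for MDA-MB-468 over SUM149PT, −4.52 for MDA-MB-468 over HCC38 and 2.90 for SUM149PT over HCC38. LDHB and SLC16A1 were also low in MDA-MB-468, LDHB with log2 differences of −4.36 from SUM149PT and −3.24 from HCC38, and SLC16A1 with −2.55 and −3.22. LDHA differed less, with 0.21 from SUM149PT, lost without MDA-MB-468 LNA NS replicate 1 (0.14) or SUM149PT LNA NS replicate 1 (0.19), and 0.14 from HCC38, which did not pass but did without MDA-MB-468 LNA NS replicate 2 (0.23) or HCC38 LNA NS replicate 1 (0.27).

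Of the 11 other hypoxia targets, 7 were higher and 4 lower in MDA-MB-468 than in HCC38 (33.7% and 37.7% of all genes). Against SUM149PT 5 were higher and 4 lower in MDA-MB-468 (35.3% and 33.2%). CA12, P4HA1 and P4HA2 stood lowest in MDA-MB-468, while CA9, NDRG1 and EGLN3 stood highest there. CA9 was higher there by 6.23 on the log2 scale than in HCC38 and by 2.19 than in SUM149PT, NDRG1 by 3.41 and 0.88, and EGLN3 by 1.39 and 5.47. EGLN3 was the exception in the order of the other lines, since SUM149PT was 4.08 below HCC38, whereas it was 4.04 above HCC38 for CA9 and 2.53 above for NDRG1. Among the enzymes, PFKM (−2.63 and −2.48) and TPI1 (−2.36 and −1.84) were lower in MDA-MB-468 than in SUM149PT and HCC38, and PFKL was higher (0.76 and 1.52). TPI1 was at 234 and 223 CPM in MDA-MB-468, 1107 and 1235 CPM in SUM149PT and 872 and 761 CPM in HCC38, and 4 annotated pseudogenes held 1.07% of the counts of gene and copies. The 8 genes that did not pass between MDA-MB-468 and SUM149PT were HK2, ALDOA, ENO2, PDK1, PFKFB3, PFKFB4, VEGFA and BNIP3. Of these, HK2 passed without LNA NS replicate 1 of either line (0.35 without that of MDA-MB-468 and 0.40 without that of SUM149PT), and VEGFA without that of MDA-MB-468 (0.31). HIF1A was 1.60 lower in MDA-MB-468 than in SUM149PT, and 1.21 higher in SUM149PT than in HCC38.

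**Figure D3:**
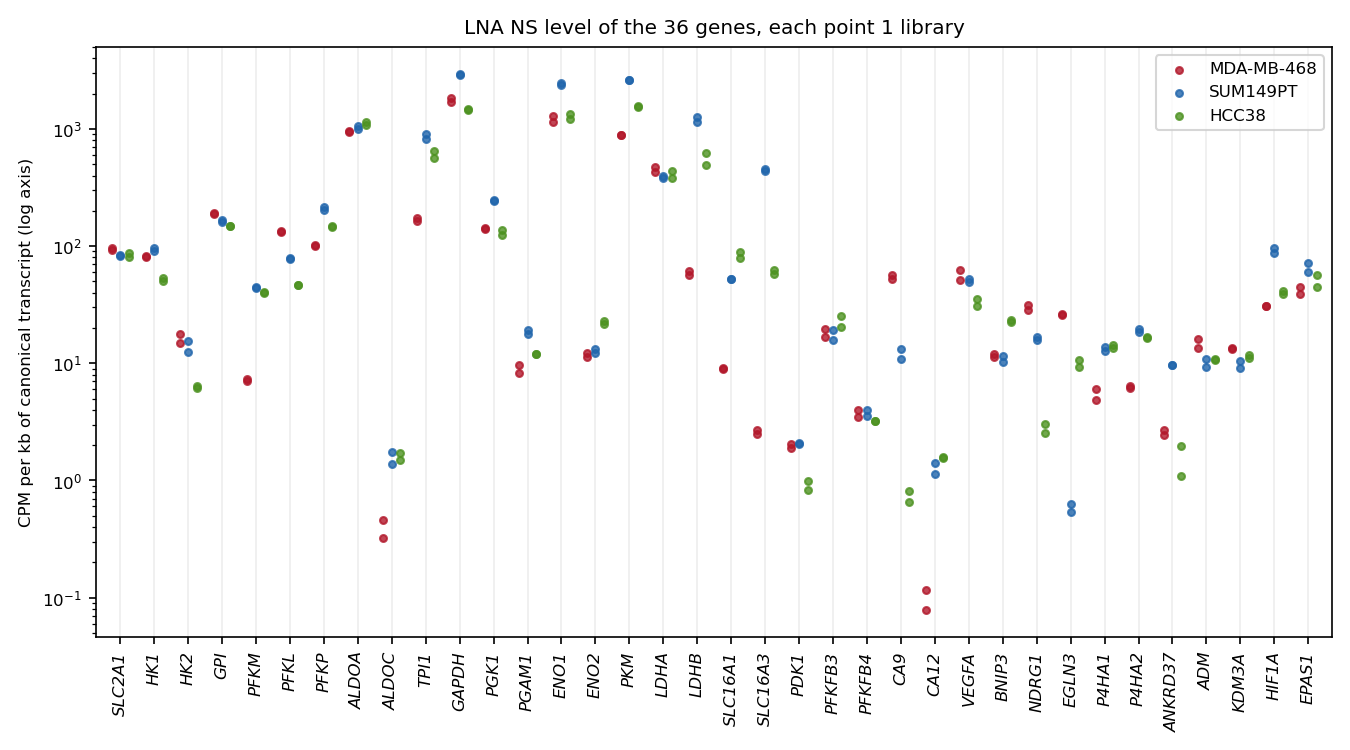
Level of the 36 genes with LNA NS, in CPM per kb of canonical transcript on a log axis, with 1 point per library for MDA-MB-468 (red), SUM149PT (blue) and HCC38 (green). SLC16A3 and LDHB are lowest in MDA-MB-468, CA9 and EGLN3 highest there, and the points of 1 line lie close together for nearly all genes.

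Which isoenzyme led was described as the share of each gene in its family per kb, with no test. Of the 10 families, the leading gene with LNA NS differed between lines in 5: phosphofructokinase, lactate dehydrogenase, the lactate transporters, the carbonic anhydrases and HIF alpha. LDHA made up 84.8% of lactate dehydrogenase after knock-down and 88.4% with LNA NS in MDA-MB-468, against 25.8% and 24.4% in SUM149PT and 45.6% and 42.3% in HCC38. SLC16A3 made up 14.0% of both transporters after knock-down and 22.4% with LNA NS in MDA-MB-468, 84.1% and 89.5% in SUM149PT, and 39.2% and 41.6% in HCC38. PFKL led in MDA-MB-468 (62.3% after knock-down and 55.2% with LNA NS), and PFKP led in the other lines (50.6% and 63.0% in SUM149PT, 45.7% and 63.0% in HCC38).

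With knock-down the hexokinase mix moved toward HK2 in each line, while HK2 itself did not pass the test. HK2 made up 43.3% and 44.6% of hexokinase in the MDA-MB-468 knock-down libraries, against 15.6% and 17.9% with LNA NS. In SUM149PT the HK2 share was 19.5% and 19.8% after knock-down, against 14.0% and 12.2% with LNA NS. In HCC38 it was 27.1% and 23.3% after knock-down, against 10.8% in both LNA NS libraries. The knock-down shares were above the LNA NS shares in every line. The share of PFKP was lower after knock-down in every library of each line. The leading gene switched in 1 family and line: HIF1A made up 62.3% and 64.0% of HIF alpha in MDA-MB-468 knock-down libraries, against 44% and 40.4% with LNA NS, where EPAS1 led. In SUM149PT the HIF1A share was 80.3% after knock-down and 58.3% with LNA NS, and in HCC38 42.3% and 44.2%. Without division by length HK2 also led in MDA-MB-468 after knock-down, and LDHA, not LDHB, led in HCC38 (59.0% after knock-down and 55.8% with LNA NS).

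**Figure D4:**
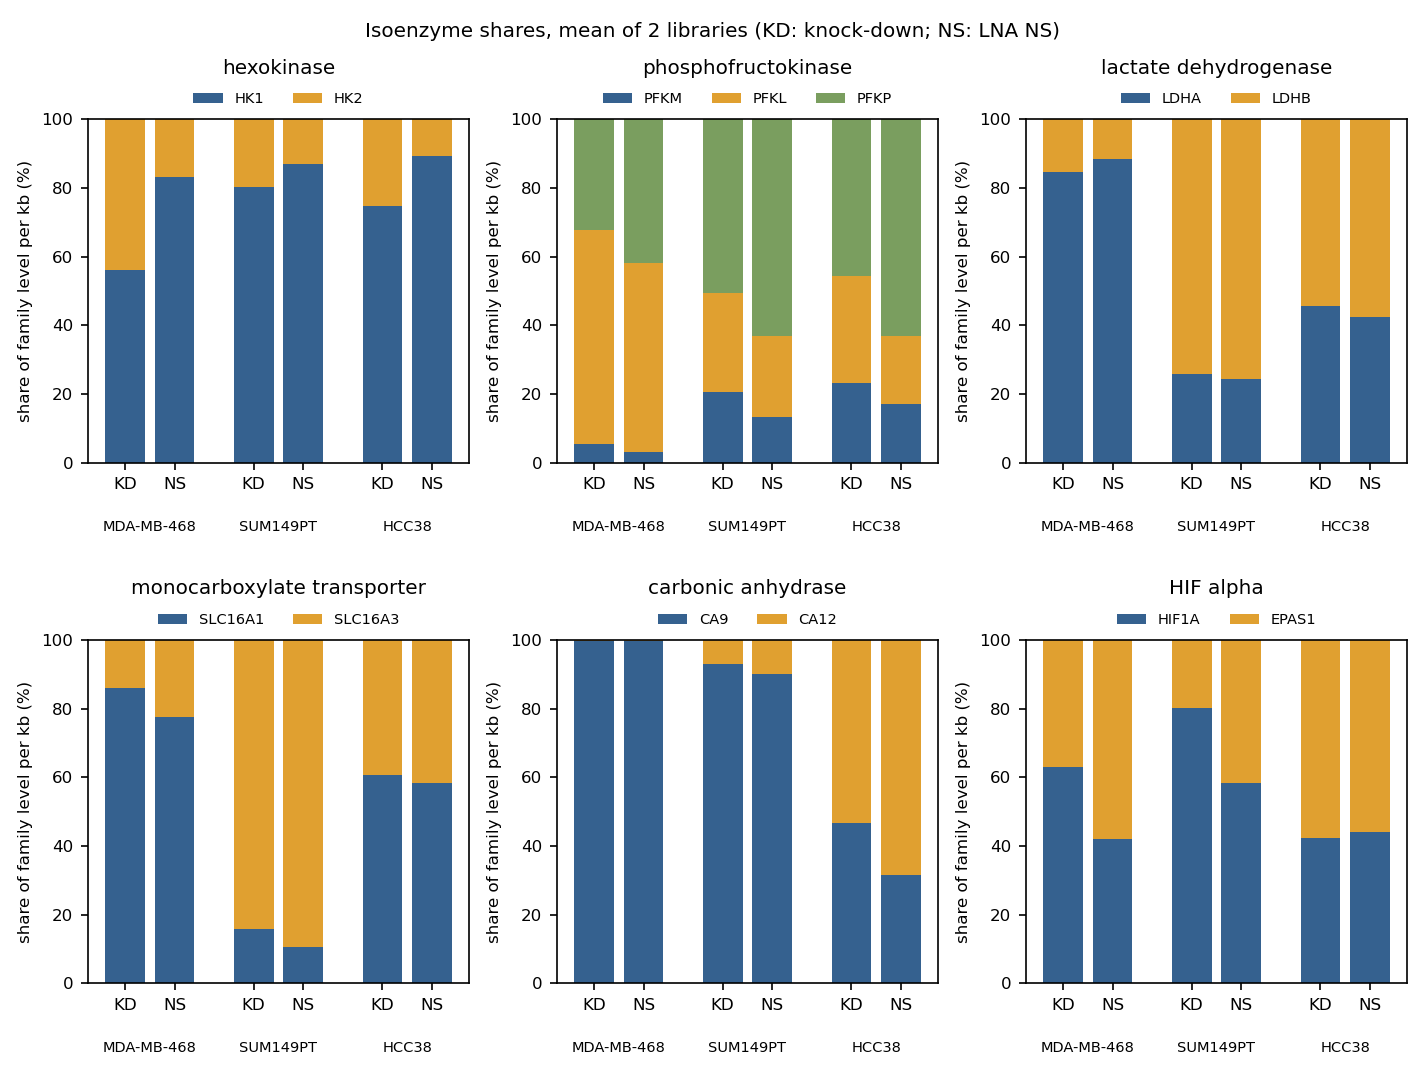
Share of each gene in the level per kb of its family, in percent, averaged over both libraries, for knock-down (KD, left) and LNA NS (NS, right) of each line. The HK2 part is larger after knock-down in each line, LDHA fills most of the bar in MDA-MB-468 (84.8% and 88.4%), and SLC16A3 most of it in SUM149PT (84.1% and 89.5%).

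Gene span, the distance from the first to the last base of the canonical transcript, moved with the change, in these genes and over all genes. The members that fell on average had a median span of 37.2 kb, against 14.2 kb for those that rose, and over all genes tested these medians were 37.2 kb and 16.5 kb. The 10 members with a span of 50 to 100 kb (PFKP, CA12, HIF1A, NDRG1, KDM3A, EPAS1, P4HA1, PDK1, HK1 and HK2) had a median log2 fold change of −0.62, against −0.03 over the 2617 genes of that span. HK2, with 59.2 kb, had a mean of 0.01, and KDM3A, with 51.3 kb, rose. With the trend of counts with gene span removed in each library, the mean log2 fold changes were −1.21 for HK1, −1.29 for PFKP, −1.02 for EPAS1 and −0.65 for NDRG1, and all 4 still passed. P4HA1, with 89.7 kb and a mean of −0.16 (edgeR adjusted p = 0.0745), was at 0.02 and did not pass there, and its call on average was also lost without replicate 1 of either group in MDA-MB-468, and in SUM149PT or HCC38 without replicate 1 of LNA NS or replicate 2 of the knock-down (−0.22 to −0.12 over the 12 fits). PFKL (27.3 kb) and CA9 (7.23 kb) were among the members that fell with shorter spans.

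**Figure D5:**
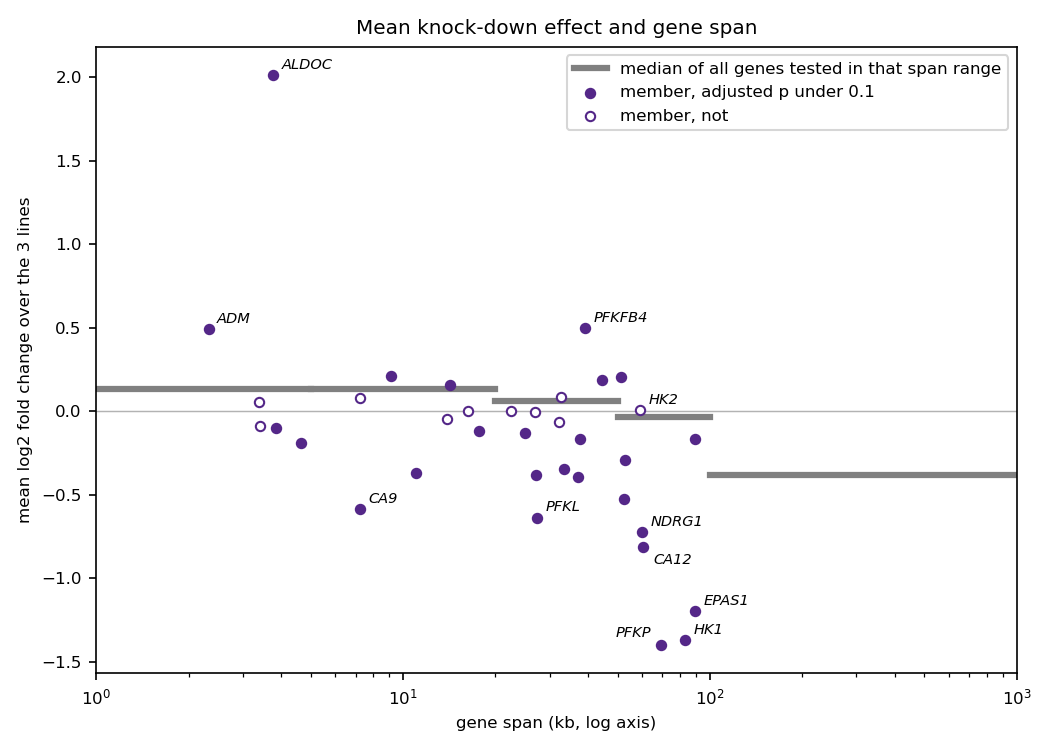
Mean log2 fold change over the 3 lines against gene span in kb on a log axis for the 36 genes (filled for an adjusted p under 0.1), with grey bars for the median of all genes tested in each range of span. HK1, PFKP and EPAS1 lie below the grey bar of their range (−0.03), and HK2 lies near it.

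Genes around this list were read from 6 further lists, on average over the 3 lines. There 54.8% of all genes were called (28.4% higher and 26.5% lower). Of 14 regulators of HIF, 7 rose and 4 fell. CITED2, a competitor of HIF for the coactivators CBP and p300, was at 139 and 137 CPM after knock-down, against 58.5 and 61.0 CPM with LNA NS in HCC38 and rose by 0.83, 1.18 and 1.21 in MDA-MB-468, SUM149PT and HCC38 (edgeR adjusted p = 7.7e-06, 1.5e-06 and 7.2e-07). VHL, which recruits the ligase that marks hydroxylated HIF alpha, was at 50.0 and 60.6 CPM after knock-down, against 22.6 and 29.4 CPM with LNA NS in MDA-MB-468 and rose by 1.09, 0.60 and 0.34. EGLN1, the main HIF prolyl hydroxylase, rose by 0.26, 0.66 and 0.45, and EP300, a HIF coactivator, by 0.76, 0.84 and 0.64. Of 36 other HIF targets, 12 rose and 19 fell, with a median of −0.21. STC2, a secreted glycoprotein, rose by 1.15, 0.23 and 1.09 in the 3 lines, and WSB1, a substrate receptor of a ubiquitin ligase, by 0.73, 0.60 and 0.41. The histone demethylases KDM4B and KDM4C fell in each line, on average by 0.96 and 0.92, with spans of 184 kb and 418 kb.

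Of the neighboring routes of glucose carbon, the pentose phosphate pathway moved one way on average over the lines. All 7 of its genes fell there (26.5% of all genes tested), with a median log2 fold change of −0.26. Line by line, 6, 4 and 5 of them fell in MDA-MB-468, SUM149PT and HCC38, against 25.7%, 18.0% and 18.4% of all genes. TALDO1, transaldolase, was at 167 and 156 CPM after knock-down, against 275 and 265 CPM with LNA NS in MDA-MB-468. It fell by 0.74, 0.63 and 0.68 in MDA-MB-468, SUM149PT and HCC38, and TKT, transketolase, by 0.66, 0.25 and 0.29. RPE, the ribulose phosphate epimerase, fell by 0.31 in MDA-MB-468 and 0.39 in HCC38 and had −0.09 in SUM149PT.

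Of 30 genes of pyruvate entry and the citric acid cycle, 20 fell and 4 rose (26.5% and 28.4% of all genes tested). Their median was −0.21, with a range from −1.85 to 1.80. The highest value was that of PDK4, a kinase that shuts pyruvate dehydrogenase, named after its values were seen, which rose by 1.99 in MDA-MB-468 and 2.28 in SUM149PT and was at 1.14 in HCC38, where it did not pass. PC, pyruvate carboxylase, was at 14.7 and 12.3 CPM after knock-down, against 82.4 and 87.8 CPM with LNA NS in MDA-MB-468 and fell by 2.66, 1.36 and 1.54 in MDA-MB-468, SUM149PT and HCC38. SUCLG2, a subunit of succinyl-CoA ligase, fell by 1.41, 1.02 and 0.63, and IDH3G, a subunit of isocitrate dehydrogenase, by 1.17, 0.79 and 0.40. PC and SUCLG2 span 110.0 kb and 280 kb, and IDH3G spans 8.61 kb. Of 14 tested genes of glycogen and gluconeogenesis, 5 rose and 7 fell (28.4% and 26.5% of all genes tested). PGM1, which links glucose 1-phosphate to glucose 6-phosphate, fell by 1.38, 0.86 and 0.28, PYGL, the liver glycogen phosphorylase, by 0.31, 0.68 and 0.86, while PYGM, its muscle form, rose by 5.19, 5.04 and 3.26. PYGM was at 16.9 and 22.6 CPM after knock-down, against 0.411 and 0.664 CPM with LNA NS in MDA-MB-468, and at 40.0 and 43.5 CPM after knock-down, against 3.98 and 4.75 CPM with LNA NS in HCC38. PCK2, the mitochondrial phosphoenolpyruvate carboxykinase, rose by 0.74 in MDA-MB-468 and 0.29 in HCC38. Of 18 further tested genes of glucose handling, 4 rose and 3 fell (28.4% and 26.5% of all genes tested). The glucose transporter gene SLC2A12 rose in each line, at 11.5 and 10.5 CPM after knock-down, against 3.43 and 3.75 CPM with LNA NS in MDA-MB-468. TIGAR, a phosphatase of the phosphofructokinase activator that PFKFB3 makes, rose by 0.66 in both MDA-MB-468 and SUM149PT. MLXIP, a glucose-sensing transcription factor with a span of 115 kb, fell on average by 0.35, while its −0.20 in SUM149PT did not pass. With the span trend removed its mean was −0.10 and did not pass. PFKFB1, a low-level relative of PFKFB3, fell on average by 1.04. Its values were −0.96, −0.61 and −1.53 in MDA-MB-468, SUM149PT and HCC38. Only HCC38 passed, on 9 summed counts after knock-down against 27 with LNA NS. In SUM149PT PFKFB1 was at 0.93 and 0.743 CPM after knock-down, against 1.31 and 1.27 CPM with LNA NS.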

How the data were processed

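Gene counts were analysed from 12 libraries, 2 per group. The authors deposited raw read counts per gene from HTSeq (0.6.0 in the submitters' processing notes, which also name TopHat2 2.0.13, whereas the methods of the study name STAR). The strand setting and the annotation release are not given in the sources used here. Counts were fitted with edgeR 4.0.16 (R 4.3.3, limma 3.58.1) after filterByExpr (minimum count 10, minimum total 15) and TMM scaling, with 6 group means and quasi-likelihood tests, Benjamini-Hochberg adjusted over 21325 genes and called at an adjusted p under 0.1. Summary lines of the counter, 40.8 to 53.7% of each file's total, were left out. DESeq2 1.42.0 was an alternative, and the script was tested on simulated data. Positions and spans came from GENCODE on GRCh37. They are those of the canonical transcript, or of the whole gene where none was marked. The named members were all 36, and from each further list up to 4 genes with the smallest adjusted p on average over the lines were named, less those not reported here. The members and lists were chosen with earlier results of these data known.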

Additional observations from a re-analysis of the deposited data

Results flagged for a closer look

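The test of a difference in the knock-down effect between the 3 lines picked out 17 of the 36 genes at an edgeR adjusted p under 0.1, where 32.4% of all genes tested passed. Each is given by its log2 fold change in MDA-MB-468, SUM149PT and HCC38 and the adjusted p of the difference. SLC2A1 had −0.54, −0.50 and 0.01 (0.0046) and HK1 had −2.15, −0.65 and −1.31 (6.96e-06). PFKL had −1.06, −0.66 and −0.19 (0.000994) and PFKP had −1.62, −1.27 and −1.31 (0.0679). ALDOA had −0.39, −0.15 and −0.02 (0.0611) and ALDOC had 3.63, 0.85 and 1.54 (0.000118). LDHB had 0.29, 0.03 and −0.31 (0.0237) and SLC16A1 had 0.67, 0.16 and −0.27 (0.000882). SLC16A3 had −0.15, −0.53 and −0.42 (0.0759) and PFKFB3 had −0.34, 0.10 and 0.50 (0.00886). PFKFB4 had 0.25, 0.80 and 0.44 (0.0831) and CA9 had −1.35, −0.13 and −0.27 (0.00035). NDRG1 had −1.81, 0.00 and −0.36 (8.75e-06) and EGLN3 had −0.90, 1.02 and −0.12 (4.81e-05). KDM3A had 0.27, 0.43 and −0.07 (0.0567) and HIF1A had −0.71, 0.04 and −0.21 (0.0264). EPAS1 had −1.94, −1.52 and −0.12 (5.06e-05). Without 1 library the p of ALDOA passed 0.1 in 5 of 12 fits, that of KDM3A in 7, those of PFKFB4 and PFKP in 8, that of SLC16A3 in 10 and that of HIF1A in 1 (0.119 without MDA-MB-468 knock-down replicate 2).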

How the results depend on the processing

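The count of these genes called was 21, 15 and 18 in MDA-MB-468, SUM149PT and HCC38, 26 on average and 17 for the difference between lines. Leaving out 1 library gave 18 to 23, 12 to 15, 11 to 18, 22 to 26 and 12 to 17, with the 11 in HCC38 reached without its knock-down replicate 2. The baseline counts of 32, 28 and 26 were 28 to 31, 25 to 28 and 23 to 26. DESeq2 gave 21, 16, 18, 26 and 19. With the span trend removed the counts were 25, 17, 19, 26 and 16, and P4HA1 turned from −0.16 to 0.0157 on average (adjusted p = 0.911 in edgeR). The cause was not tested. Same-numbered libraries had correlated deviations of −0.038, 0.267 and −0.348 in the 3 lines, so the numbers do not pair the samples, and a fit with the replicate block gave 20, 15, 18, 24 and 13. With the numbers crossed in HCC38, chosen after seeing the data, the block gave 24, 15, 20, 27 and 20. With 2 libraries a group, line-level calls with log2 fold changes as far from 0 as −0.66 (CA12 in SUM149PT) were lost without 1 library.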
